A study of Mus musculus with 6 samples.

Results

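The interferon-inducible GTPase genes described here were the guanylate-binding protein (GBP) genes Gbp2, Gbp3, Gbp4, Gbp5, Gbp6, Gbp7, Gbp8 and Gbp9 and the immunity-related GTPase (IRG) genes Irgm1 and Igtp. They are 10 of the 55401 genes in the count table and were taken by symbol. The family was chosen by the measured fold change of Gbp8, which had been seen among the largest falls between the same 2 groups that are compared here, so the differences of these genes between the groups are given as a description and not as a test. RNA was sequenced from mouse T cells in 2 groups of 3 samples. Both groups were labelled T cells, and the deposited design describes CD8a bead selection from spleen. The control group was cultured with supernatant of untreated macrophages and the NFL group with supernatant of macrophages activated for 24 h with neurofilament light chain (NFL), an axonal protein that here was prepared from sciatic nerve lysate at 5 µg/mL. That concentration is from the deposited design, and the co-culture methods of the paper name a much lower one. The animal methods of the paper name a purchased NFL protein and list nerve lysate as a separate treatment. In both groups the macrophages had been grown from CD11b-selected spleen cells for 7 days in 50 ng/mL M-CSF, and their filtered supernatant was used at 50% in RPMI with 2% serum. The animal methods of the study name young female C57BL/6 and NOD-SCID mice but do not say which of them gave these cells, the number of mice behind each sample is not given, and nothing states that samples of a group came from separate cultures, so the errors measure only the spread between these samples.

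GBPs and IRGs are GTPases that cells produce mainly in response to interferon-γ and, in part, to type I interferons. GBPs coat the vacuoles and membranes of intracellular pathogens, help to break them open and feed inflammasome activation, and several of them are anchored to membranes by a prenyl lipid. Irgm1 and Igtp (also called Irgm3) belong to the regulatory IRGM class, which sits on the membranes of the cell itself and keeps the effector IRGs off them. In T cells Irgm1 is known for sustaining survival when interferon-γ is present.

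The genes lie in 4 places in the genome. Coordinates are those of the GENCODE M21 gene models on GRCm38, whose versioned identifiers were identical to those in the count table for all 10 genes. On chromosome 3, plus strand, Gbp5 spans 142493978 to 142522344, Gbp7 spans 142530342 to 142550149, Gbp3 spans 142560026 to 142573209 and Gbp2 spans 142620602 to 142638008. On chromosome 5, minus strand, Gbp8 spans 105014150 to 105139540, Gbp9 spans 105077630 to 105139539, Gbp4 spans 105115767 to 105139586 and Gbp6 spans 105270702 to 105293698. On chromosome 11, Irgm1 spans 48861968 to 48871683 on the minus strand and Igtp spans 58199556 to 58207591 on the plus strand. The submitters' processing notes name GRCm39, so these positions place the gene models and not the reads.

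The stretch just before the transcription start of 4 of these genes is printed because it carries interferon-linked sequence motifs. Each of the 4 holds an ISRE core, and those of Igtp and Gbp5 also hold a GAS, both defined below. The 4 are the pair with the highest level (Irgm1 and Igtp) and the pair whose NFL libraries all lay above the control libraries (Gbp3 and Gbp5). Sequences are from RefSeq on GRCm38.p6, read 5′ to 3′ on the strand of the gene, and end before the first exon of any annotated coding transcript. The Irgm1 stretch lies within the first exon of a non-coding Irgm1 transcript. The Gbp5 stretch lies inside the span of the Gbp5 gene model, which begins further upstream, at 142493978, with a non-coding transcript. Capitals mark matches to the core of the interferon-stimulated response element (ISRE core, GAAANNGAAA on either strand), to which interferon regulatory factors bind, and to the interferon-γ activated site (GAS, TTCNNNGAA on either strand), an element of interferon-γ responsive genes.
Irgm1, chr11:48871421-48871600, minus strand: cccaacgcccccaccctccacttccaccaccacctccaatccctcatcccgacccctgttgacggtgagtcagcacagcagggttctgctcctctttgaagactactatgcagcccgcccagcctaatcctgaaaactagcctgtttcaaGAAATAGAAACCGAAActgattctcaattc
Igtp, chr11:58199376-58199555, plus strand: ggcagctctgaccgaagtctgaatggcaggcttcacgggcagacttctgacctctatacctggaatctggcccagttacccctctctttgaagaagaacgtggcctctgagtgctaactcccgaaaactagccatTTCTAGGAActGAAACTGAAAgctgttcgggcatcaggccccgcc
Gbp3, chr3:142559864-142560025, plus strand: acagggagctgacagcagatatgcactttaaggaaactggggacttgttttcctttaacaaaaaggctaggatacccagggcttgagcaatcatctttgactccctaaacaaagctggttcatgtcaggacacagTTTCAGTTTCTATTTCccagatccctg
Gbp5, chr3:142496754-142496899, plus strand: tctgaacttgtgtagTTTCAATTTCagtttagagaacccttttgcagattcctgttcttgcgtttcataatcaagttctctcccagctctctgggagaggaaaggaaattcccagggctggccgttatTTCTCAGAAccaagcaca

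RefSeq promoter sequences, from 250 bases before to 50 bases after a start, were matched for 6 of the 10 genes, in 7 windows because Gbp3 has a pair of starts. The genes without an entry were Gbp4, Gbp6, Gbp8 and Gbp9. All 6 matched genes had an ISRE core in a window, whereas 3.44% of the 32851 mouse promoters of the same length had one. A GAS was present in 3 of the 6, Gbp5, Gbp7 and Igtp, and in 8.30% of all promoters. An NF-κB motif, searched by its name on both strands, was present in Gbp5 alone, 77 bases upstream, and in 4.51% of all promoters. The ISRE core began 59 bases upstream of the start in Gbp2, 53 in Gbp7, 34 in Igtp and 165 in Gbp5. In Irgm1 (30 and 24 bases upstream) and in Gbp3 (45 and 39) a pair of ISRE cores overlapped each other. In Igtp the GAS began 45 bases upstream, beside the ISRE core. Irgm2, the neighbour of Igtp and the other regulatory IRG, had the same pair of motifs, with the ISRE core at 64 and the GAS at 75 bases upstream. A match is a description of these letters and does not show that a factor bound there.

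The libraries held 15843045 to 24639756 counts on genes, and 21135 to 23430 genes had a count. A floor of 3 counts corresponded to 0.122 to 0.189 CPM, the unit of counts after scaling by library size, and this floor covers counting error only. Of 11 T-cell markers, Cd3e (815 to 1529 counts), Thy1 (25706 to 42063) and Il2ra (25629 to 41271) were present in every library, whereas Cd2 and Cd5, both defining markers of spleen T cells, were at 0 counts in all 6. Cd8a, the marker used for the selection, had 51 to 109 counts, Cd8b1 14 to 37 and Cd4 409 to 631, and 99.9% to 100% of the counts on T-cell receptor beta variable genes were on Trbv1. The libraries are therefore called T cells by their label. The summed level of the 11 T-cell markers was 3370 to 3538 CPM in control and 3565 to 3650 CPM in NFL libraries, so the groups did not overlap. Of 14 macrophage markers 6, among them C1qa, Itgam and Cd14, were at 0 in every library and 9 never exceeded 3 counts, and the summed level of the 14 was 75.2 to 82.5 CPM in control and 75.4 to 80.0 CPM in NFL libraries. Of 8 B-cell markers 3 were at 0 everywhere, with a sum of 16.6 to 17.8 CPM in control and 17.9 to 19.7 CPM in NFL libraries. Of 6 natural killer cell markers 3 (Ncr1, Klrd1 and Klra8) were at 0 everywhere, so the sum was carried by Eomes, Gzma and Klrb1c. It was 710 to 753 CPM in control and 631 to 654 CPM in NFL libraries and is not read as an amount of natural killer cells. The part of these differences in the values of the GTPase genes was not tested. In such bulk samples, fewer cells of a type and less RNA per cell cannot be told apart.

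Irgm1 and Igtp were the dominant GTPases of the 10. Per kilobase of exon, the mean level over the 6 libraries was 7.45 CPM for Irgm1 (6.90 to 7.99) and 7.07 CPM for Igtp (5.66 to 7.53). The next gene, Gbp8, had a mean level of 0.780 CPM per kilobase (0.405 to 1.51) and did not overlap with Igtp in any library. Below it came Gbp3 at 0.435, Gbp7 at 0.213, Gbp2 at 0.156, Gbp6 at 0.148, Gbp4 at 0.148, Gbp9 at 0.0898 and Gbp5 at 0.0800 CPM per kilobase. Every neighbouring pair in this order had overlapping ranges, with the single exception of Igtp and Gbp8. In each library Irgm1 and Igtp together made up 85.9% to 88.9% of the summed level per length of the 10 genes. On this scale the level of Ifi47, another IRG, was similar to theirs (7.57 CPM per kilobase, 6.95 to 8.06), and that of Irgm2 was lower (1.42, 1.11 to 1.60). The similarity depends on the length used. Merged exons cover 5810 bases in Irgm1, 2022 in Igtp and 2473 in Ifi47, and the longest coding transcripts have 2259, 2022 and 1773. By the latter length these levels would be less alike, and the order of the GBPs below Gbp3 rests on the same choice.

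**Figure D1:**
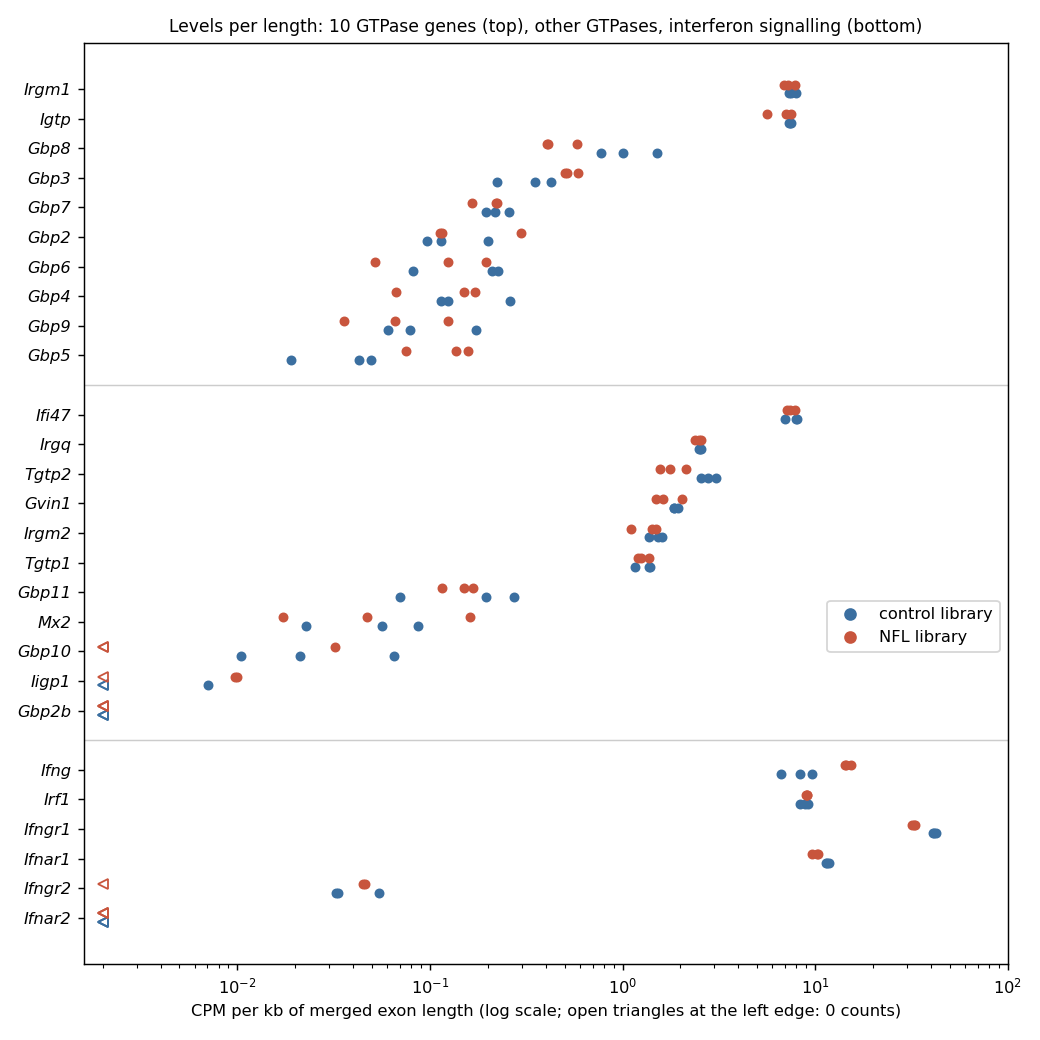
Level of each gene in CPM per kilobase of merged exon length (log axis), with 1 point per library, control in blue and NFL in red; open triangles at the left edge are libraries with 0 counts. Irgm1 and Igtp lie between 5.66 and 7.99 in every library and all 8 GBP genes lie at or below 1.51.

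For the 7 genes with enough reads to be fitted, 1 (Gbp8) was past the adjusted threshold of 0.05 in the lower direction, against a background of 3.53% of the 14082 genes tested, and 0 were past it in the higher direction, where the background was 3.47%. In either direction 7.00% of all genes tested were past it, 489 higher and 497 lower with edgeR's TMM scaling and 372 higher and 600 lower with library size alone. At an unadjusted p under 0.05 edgeR gave 1 of the 7 as higher (Gbp3). At the adjusted threshold limma-voom gave 0 as higher and 1 (Gbp8) as lower. DESeq2 gave an adjusted p for Irgm1 and Igtp alone, and 0 of those was past the threshold. The median log2 fold change of the 7 was -0.13, with 1 value above zero and 6 below, and the median over all genes tested was -0.00. Counting all 10 genes, every NFL library lay below every control library in 1 (Gbp8), as it did in 11.2% of all genes tested, and above in 2 (Gbp3 and Gbp5), as it did in 11.5%. The groups overlapped in the other 7. Because this contrast was used to choose the family, nothing is read from these counts.

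**Figure D2:**
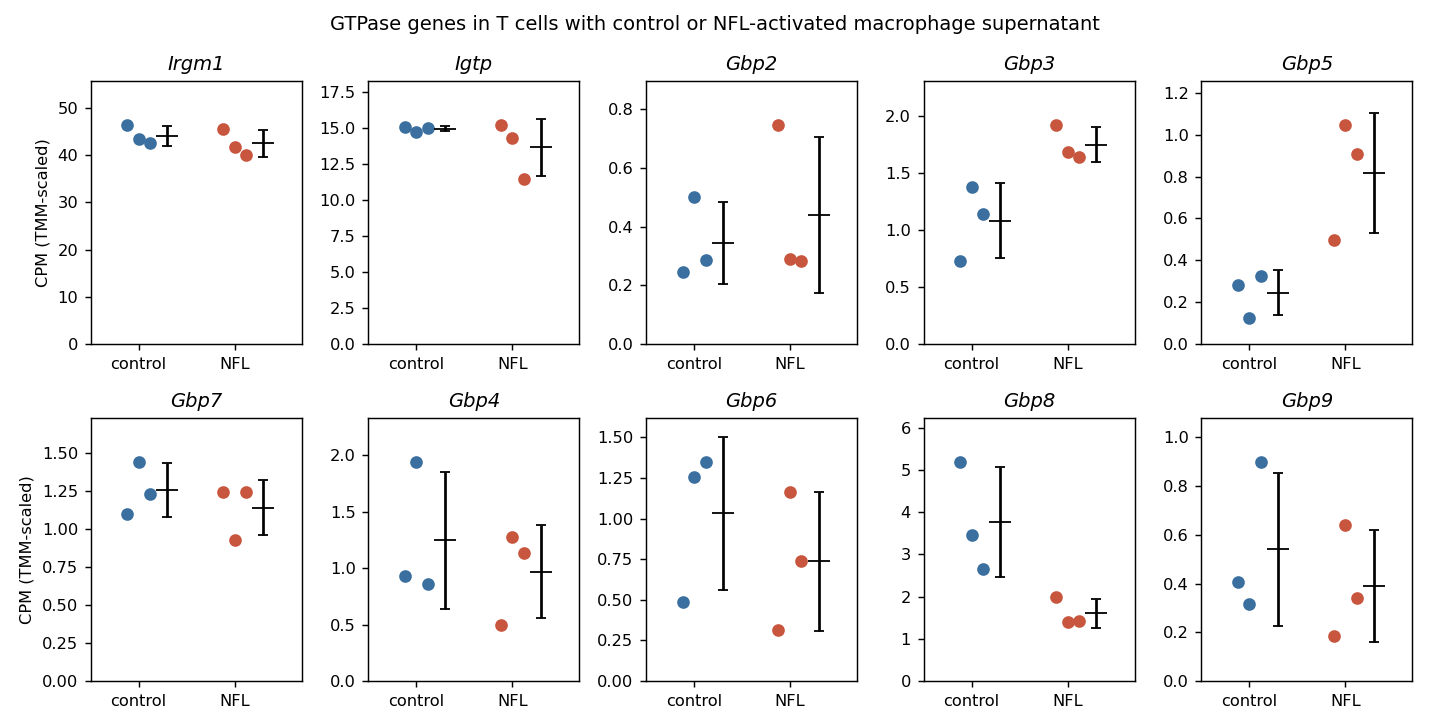
Level of the 10 genes in each library in CPM, with each vertical axis starting at 0; points are libraries (control in blue, NFL in red) and bars show the mean and SD of 3. Gbp8 is lower and Gbp3 and Gbp5 are higher in every NFL library than in every control library, and the groups overlap in the other 7 genes.

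The regulatory IRGs Irgm1 and Igtp were measured most precisely. Irgm1 had 1142, 691 and 1038 counts in control replicates 1 to 3 and 733, 719 and 708 in NFL replicates 1 to 3. Scaled to library size, this was 44.1 ± 2.06 CPM in control and 42.5 ± 2.78 CPM in NFL samples (SD, n = 3 each). The log2 fold change was -0.06, with a 95% interval of -0.18 to 0.07, and the groups overlapped. Igtp had 371, 235 and 367 counts in control and 245, 246 and 202 in NFL replicates, or 14.9 ± 0.177 against 13.7 ± 1.97 CPM. The 3 control libraries of Igtp were nearly equal and NFL replicate 3 was the lowest of all 6. Its log2 fold change was -0.13, with a 95% interval of -0.34 to 0.07. Igtp and Irgm2 share 162 exon bases on the same strand, 8.01% of the Igtp exon length, where 1 of 3 Irgm2 transcripts begins, and 11.8% of the 50-base stretches of Igtp transcripts also occur in Irgm2. With the counts of Igtp and Irgm2 summed, an alternative added after the data had been seen, the level was 20.5 ± 0.442 CPM in control and 18.6 ± 2.74 CPM in NFL samples and the log2 fold change was -0.14.

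Among the GBPs encoded on chromosome 3, Gbp3 and Gbp5 had higher values with NFL supernatant in every library, at low counts. Gbp5, which is known to promote assembly of the NLRP3 inflammasome, had 7, 2 and 8 counts in control and 8, 18 and 16 in NFL replicates. These were 0.284, 0.126 and 0.327 CPM against 0.497, 1.05 and 0.906 CPM, so the lowest NFL library lay just above the highest control library on this scale, from 8 counts each. The mean was 0.246 ± 0.106 CPM in control and 0.817 ± 0.285 CPM in NFL samples, a ratio of 3.32. Counting error alone gave an exact Poisson 95% interval of 0.242 to 7.22 counts for control replicate 2 and 10.7 to 28.4 for NFL replicate 2. Gbp5 did not pass the filter on low counts. Without that filter its log2 fold change was 1.65 (SE 0.566), not past the threshold, and without NFL replicate 1 it passed both the filter and the threshold at 1.90. It also passed the filter without control replicate 1 (1.73), 2 (1.41) or 3 (1.88) and was not past the threshold in any of these.

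Gbp3 had 18, 22 and 28 counts in control and 31, 29 and 29 in NFL replicates, or 0.731, 1.38 and 1.15 against 1.93, 1.69 and 1.64 CPM. The NFL libraries were close together and the control libraries were spread, with replicate 1 lowest. The mean was 1.09 ± 0.329 CPM in control and 1.75 ± 0.152 CPM in NFL samples, and the log2 fold change was 0.71 (SE 0.340, 95% interval 0.03 to 1.40), which was not past the adjusted threshold. Gbp2, a prenylated GBP, had 5 to 12 counts in all libraries and did not pass the filter. Its mean was 0.344 ± 0.138 CPM in control and 0.440 ± 0.265 CPM in NFL samples, and the higher NFL mean came from NFL replicate 1, without which the log2 ratio of means was -0.26. Gbp7 had 23 to 30 counts in control and 16 to 22 in NFL libraries. On the CPM scale its groups overlapped, at 1.26 ± 0.175 against 1.14 ± 0.181 CPM, with a log2 fold change of -0.13 and a 95% interval of -0.84 to 0.58, and without NFL replicate 2 the value was 0.0033. Gbp7 shares 637 exon bases with the pseudogene Gm43802, which had 0 counts in every library, and Gbp2 overlaps the microRNA gene Mir6381 by 24 bases on the opposite strand, also at 0.

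Gbp8, the gene on which the family was selected, was the most abundant GBP in the control libraries. It had 128, 55 and 65 counts in control and 32, 24 and 25 in NFL replicates, which is 5.20, 3.45 and 2.66 CPM against 1.99, 1.40 and 1.42 CPM. All NFL libraries lay below all control libraries, and control replicate 1 stood well above the other two. The mean fell from 3.77 ± 1.30 to 1.60 ± 0.336 CPM, a ratio of 0.424, and the log2 fold change was -1.25 (SE 0.262, 95% interval -1.77 to -0.72). The control libraries varied more than counting error gives, with a chi-square of 10.7 per degree of freedom among the 3, whereas the NFL libraries did not (1.17). Without control replicate 1 the log2 fold change was -0.92 and its adjusted p of 0.067 (edgeR's quasi-likelihood test, Benjamini-Hochberg adjusted over all genes) was no longer past the threshold. With each of the other 5 libraries left out the value lay between -1.46 and -1.16 and stayed past it. As a share of the summed CPM of the 8 GBP genes, Gbp8 made up 55.4%, 33.1% and 30.4% in control and 26.9%, 16.6% and 18.4% in NFL libraries. The summed GBP level itself was 9.39, 10.4 and 8.76 CPM in control and 7.39, 8.43 and 7.70 CPM in NFL libraries. Without Gbp8 the sum of the other 7 was 4.19, 6.97 and 6.10 CPM in control and 5.40, 7.03 and 6.29 CPM in NFL libraries, so the groups then overlapped.

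The other chromosome 5 genes did not share this pattern of separation. Gbp4 had 23, 31 and 21 counts in control and 8, 22 and 20 in NFL replicates, or 0.935, 1.95 and 0.860 against 0.497, 1.28 and 1.13 CPM. The groups overlapped, and the log2 fold change of -0.29 (95% interval -1.09 to 0.50) turned to 0.12 without control replicate 2 and to 0.01 without NFL replicate 1. Gbp6 had 12, 20 and 33 counts against 5, 20 and 13, with 1.03 ± 0.473 and 0.736 ± 0.426 CPM and a log2 fold change of -0.45 (95% interval -1.33 to 0.43). Of the 50-base stretches of Gbp6 transcripts, 70.7% also occur in another gene, mainly Gm43302 (65.0%), whose exons overlap those of Gbp6 and which had 0 counts, and Gbp10 (45.9%), so its values are uncertain. Gbp9 had 10, 5 and 22 counts against 3, 11 and 6, did not pass the filter on low counts, and had 0.540 ± 0.315 and 0.389 ± 0.230 CPM.

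**Figure D3:**
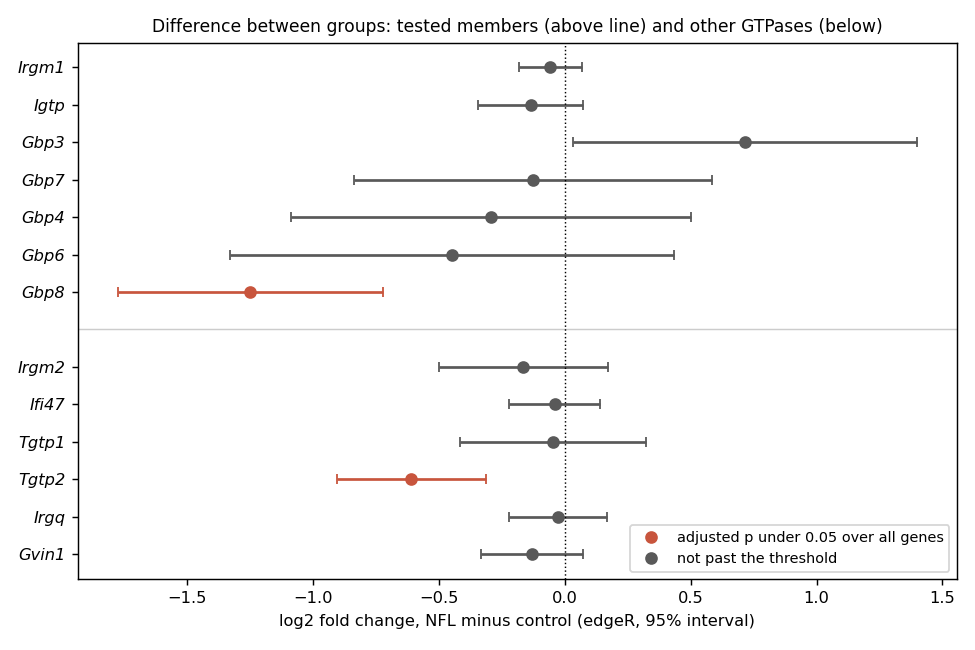
Log2 fold change of NFL over control samples with its 95% interval from edgeR for the 7 fitted genes (above the line) and 6 related GTPase genes (below); red marks an adjusted p under 0.05 over all genes. Gbp8 at -1.25 and Tgtp2 at -0.61 are past the threshold, and the narrow intervals of Irgm1 (-0.18 to 0.07) and Igtp (-0.34 to 0.07) contrast with the wide ones of the other GBPs.

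The models of Gbp8, Gbp9 and Gbp4 overlap on the same strand, and how the authors assigned a read in an overlap is not given in the sources used here. All of the overlap lies in a single first exon, at 105139480 to 105139540 of chromosome 5. All 6 annotated transcripts of Gbp4 start there or just upstream of it, and 1 of 4 of Gbp9 and 1 of 4 of Gbp8 start there. The overlap with Gbp4 covers 61 bases, which is 1.77% of the exon bases of Gbp8 and 0.814% of those of Gbp4, and the overlap with Gbp9 covers 60 bases, 1.16% of the exon bases of Gbp9. Similar sequence is a wider source of doubt, since 18.1% of the 50-base stretches of Gbp8 transcripts also occur in another gene, most often Gbp11 (7.37%) and Gbp10 (6.67%). Gbp10 had 0 to 4 counts and Gbp11 3 to 18 counts in any library, below every Gbp8 count.

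The counts of Gbp4, Gbp8 and Gbp9 were therefore summed, so that a read assigned to any 1 of them stays in the sum, although reads dropped as ambiguous or counted for several genes would still change it. It was 161, 91 and 108 in control and 43, 57 and 51 in NFL replicates. Gbp8 supplied 128, 55 and 65 of the control counts, so the sum largely restates the gene on which the family was chosen. The level was 5.56 ± 1.07 CPM in control and 2.96 ± 0.327 CPM in NFL samples, with a log2 fold change of -0.90 (SE 0.191). Gbp4 and Gbp9 summed without Gbp8, an alternative added after the data had been seen, had 33, 36 and 43 against 11, 33 and 26 counts and a log2 fold change of -0.36, not past the threshold. Without Gbp8 the groups overlapped.

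**Figure D4:**
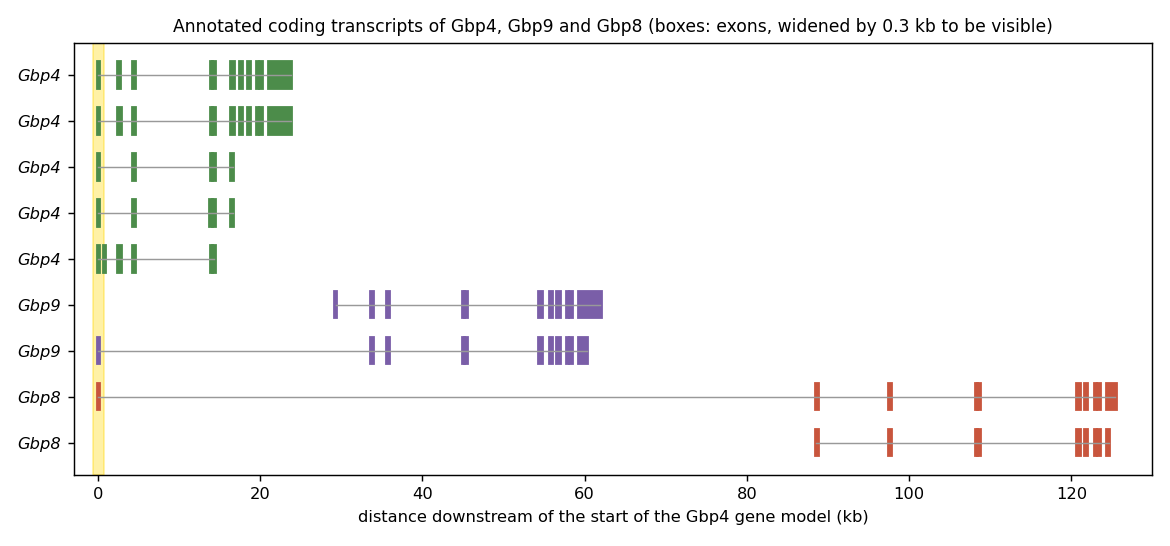
Annotated coding transcripts of Gbp4, Gbp9 and Gbp8 drawn from the shared start (yellow band), with exons as boxes and distance in kb on the horizontal axis. Only 1 coding transcript each of Gbp9 and Gbp8 begins in the band, and the remaining exons of the 3 genes lie apart.

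**Figure D5:**
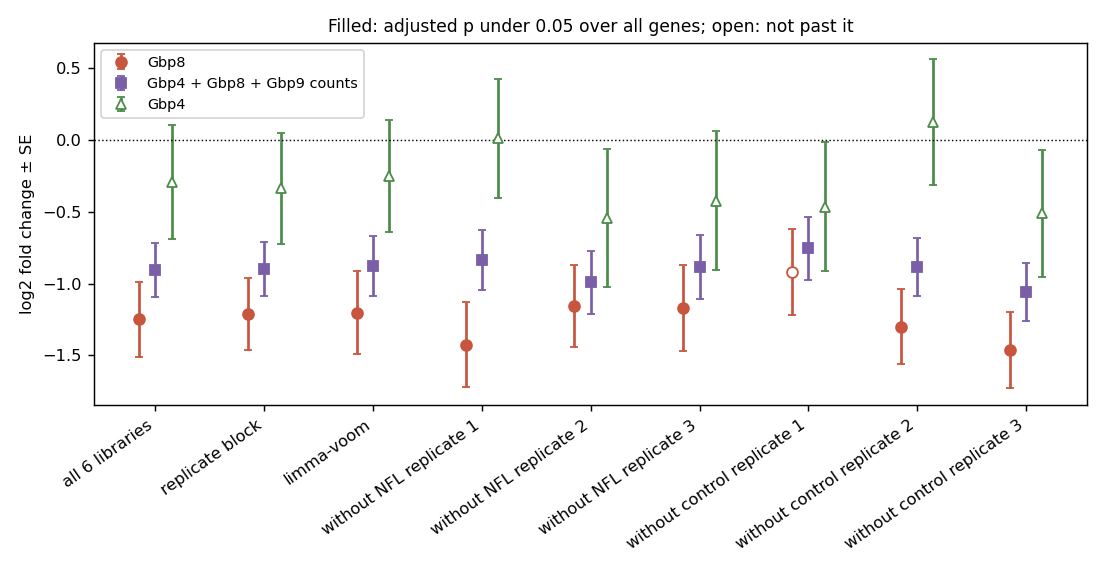
Log2 fold change of Gbp8, of Gbp4 and of the summed Gbp4, Gbp8 and Gbp9 counts, with SE, with all libraries, with a replicate block, with limma-voom and with each library left out; filled symbols have an adjusted p under 0.05. Gbp8 stays between -1.46 and -0.92 and is open only without control replicate 1, whereas Gbp4 crosses zero.

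The 3 genes whose log2 CPM followed Gbp8 most closely over the 6 samples were Slc13a4 (Pearson's r = 0.999), Sectm1a (0.996) and Map3k1 (0.994), among tested genes whose mean log2 CPM reached 1. Their own log2 fold changes were small, at -0.19, -0.19 and -0.16. These are the highest of many correlations over 6 points that share their libraries, and no test is attached to them.

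The related GTPases outside the 10 genes comprised 19 listed symbols, of which 12 matched a gene in the table and 6 could be fitted. Over all genes tested 3.53% were past the threshold in the lower direction and 3.47% in the higher. Tgtp2, an effector IRG, was past the threshold in the lower direction, from 8.21 ± 0.730 to 5.34 ± 0.856 CPM (log2 fold change -0.61, SE 0.148, adjusted p = 0.0050 with edgeR's quasi-likelihood test), and 0 were past it in the higher direction with edgeR, DESeq2 or limma-voom, as at an unadjusted p under 0.05 with edgeR. Without NFL replicate 1 the Tgtp2 value was -0.51 (adjusted p = 0.0501 with edgeR). Its near-copy Tgtp1 had a log2 fold change of -0.05, and 86.6% of the 50-base stretches of Tgtp2 also occur in another gene. Summed, an alternative added after the data had been seen, Tgtp1 and Tgtp2 had 12.4 ± 0.393 against 9.43 ± 1.12 CPM and a log2 fold change of -0.39 (adjusted p = 0.0264). The others fitted were Irgm2 (-0.16), Ifi47 (-0.04), Irgq (-0.03) and Gvin1 (-0.13), and the median of the 6 was -0.09. Gbp2b was at 0 counts in every library, which allows up to 0.122 to 0.189 CPM, and Mx1, Mx2, Gbp10, Gbp11 and Iigp1 had too few counts to be fitted.

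Upstream of these genes, of 21 genes of interferon receptors, signalling and transcription factors 17 were fitted, and their median log2 fold change was -0.03. By edgeR 1 was higher and 3 were lower, beside 3.47% and 3.53% of all genes tested. Limma-voom gave 1 as higher and 4 as lower. The ligand gene Ifng rose from 10.6 ± 1.92 to 19.1 ± 0.714 CPM (log2 fold change 0.82, adjusted p = 1.2e-07), while Ifngr1, the ligand-binding chain of its receptor, fell from 118 ± 2.03 to 92.5 ± 1.42 CPM (-0.35, adjusted p = 8.4e-09). Ifnar1, a chain of the type I interferon receptor, fell by 0.20 and Irf7, a factor of the type I response, fell by 0.51 on the log2 scale (adjusted p = 0.0069 and 0.0154, all from edgeR's quasi-likelihood test). Ifnar1 was no longer past the threshold without control replicate 1 (-0.19) or NFL replicate 3 (-0.17), nor Irf7 without control replicate 3 (-0.47), NFL replicate 1 (-0.47) or NFL replicate 3 (-0.49), or with counts thinned to the smallest library (-0.45). The partner chains were almost unread: Ifngr2 had 0 to 5 counts and Ifnar2 was at 0 in every library. Ifnb1, a type I interferon gene, had 4, 1 and 3 counts in control and 7, 9 and 5 in NFL replicates, too few to be fitted. In CPM all of its NFL libraries lay above all of its control libraries, as in 11.5% of all genes tested, and nothing is read from this. The log2 fold change of Irf1, a factor that acts at the ISRE, was 0.03, with a 95% interval of -0.10 to 0.16, and was not past the adjusted threshold.

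Among 26 interferon-responsive genes that are not GTPases, 22 were fitted, 3 were higher and 0 lower by edgeR, and the median log2 fold change was 0.05. Over all genes tested 3.47% were higher and 3.53% lower. At an unadjusted p under 0.05 edgeR gave 1 as lower. At the adjusted threshold DESeq2 and limma-voom each gave 0 as lower, and they gave 2 and 3 as higher. The chemokine gene Cxcl10 rose from 13.3 ± 2.90 to 27.8 ± 1.53 CPM (log2 fold change 1.04) and Oasl1, an antiviral sensor-family gene, from 10.5 ± 0.432 to 15.1 ± 1.17 CPM (0.52). Bst2, or tetherin, rose from 157 ± 4.27 to 170 ± 4.49 CPM (0.12), a call that was lost without control replicate 1 or 2 (0.11 each) and without NFL replicate 2 or 3 (0.11 and 0.10), with library size alone (0.10), with no filter (0.12) and with DESeq2 (0.11). The immunoproteasome genes Psmb8, Psmb9 and Psmb10 had log2 fold changes of -0.00, -0.09 and -0.01. Neither this list nor the receptor list was independent of earlier looks at these data.

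The pathways in which these GTPases act were read from 3 further lists, beside shares of 3.47% higher and 3.53% lower over all genes tested. Of 9 inflammasome and caspase genes 5 were fitted, and Casp4, the caspase-11 gene of the non-canonical inflammasome, rose from 9.57 ± 0.361 to 13.3 ± 0.400 CPM (log2 fold change 0.48, adjusted p = 0.0030 with edgeR's quasi-likelihood test). Nlrc4, an inflammasome sensor gene, had 10, 4 and 6 counts in control and 17, 12 and 11 in NFL replicates and a log2 fold change of 1.34, not past the threshold. Casp1 (0.11), Aim2 (-0.01) and Gsdmd (0.05) were not past it either, and Nlrp3, Il1b and Il18 never exceeded 4 counts. Pycard had too few counts to be fitted. It was lower in every NFL library than in every control library, as were 11.2% of all genes tested, and nothing is read from this. Its levels were 0.0962, 0.132 and 0.0862 CPM per kilobase in control and 0.0654, 0.0459 and 0 in NFL replicates. Of 14 autophagy conjugation and vacuole adaptor genes 13 were fitted and 2 were higher, the adaptor Sqstm1 (0.18; not past the threshold with DESeq2) and the Atg8-family gene Gabarapl1 (0.19; 0.17 and not past the threshold without NFL replicate 1). All 5 prenylation enzyme genes were fitted and 0 passed the threshold in either direction with edgeR, DESeq2 or limma-voom, with a median of 0.01, while 2 were lower at an unadjusted p under 0.05 with edgeR.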

How the data were processed

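Poly(A)-selected RNA of 6 T-cell samples was sequenced, and the authors deposited 1 table of raw read counts per gene, without normalization or pooling. Aligner, counting program, annotation and strandedness are not given in the sources used here; the submitters' processing notes name GRCm39, R 4.2.1 and limma 3.54.2. Columns were matched to samples by the letter and number in their names, and 0 columns were left without a sample. The members, lists and tests were chosen with earlier results of these data known. Genes were kept by filterByExpr (minimum count 10, minimum total 15), scaled by TMM and tested over 14082 genes with edgeR 4.0.16 (glmQLFit and glmQLFTest, R 4.3.3), adjusted by Benjamini-Hochberg, and called at 0.05. The smallest p that permuting 3 against 3 samples allows is 0.1, so no such test was used. CPM used the TMM-scaled library sizes, and levels between genes were compared per kilobase of merged GENCODE M21 exons. Totals of 15843045 to 24639756 counts leave a gene at 20 counts with a wide counting error, and intervals and floors cover counting error only.

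Named genes were every member, every list gene past the threshold and up to 3 more of each list by level, genes whose exons overlap a member's, and the 3 genes most like Gbp8. Exceptions, chosen after their values were seen, were Gbp10, Gbp11, Iigp1, Gbp2b, Mx1, Mx2, the remaining GTPases fitted and the markers named. Further exceptions of this kind were Ifngr2, Ifnar2, Ifnb1, Irf1, Psmb9, Psmb10, Nlrp3, Nlrc4, Pycard, Il1b and Il18. Same-numbered samples of the groups did not deviate together (r = -0.02, 0.01 and 0.05 over 7936 genes). Alternatives were other scalings and filters, thinned counts, a replicate block, DESeq2 1.42.0, limma-voom (limma 3.58.1), each library left out and overlapping genes summed. The procedure was tested on simulated data. Figures were drawn with matplotlib 3.10.9. Other data of the study were not analysed here, and a withheld result of a single gene is not reported here, although counts over lists include it.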

Additional observations from a re-analysis of the deposited data

How the results depend on the processing

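Of 91 values of the 7 fitted members under alternatives, summed genes apart, 87 kept their direction and their side of the threshold. Gbp8 was past the threshold under every alternative that gave it an adjusted p except without control replicate 1 (-0.92); DESeq2 gave Gbp8 a log2 fold change of -1.25 but no adjusted p, and none for the sum of Gbp4, Gbp8 and Gbp9. With the replicate block, which is not supported by any label, 1 member was past the threshold (Gbp8 at -1.21) and 1049 genes in all, and the block changed no call of a member. The direction reversed for Gbp4 without control replicate 2 (0.12) and without NFL replicate 1 (0.01) and for Gbp7 without NFL replicate 2 (0.0033), all far from the threshold; with a library left out their values spanned -0.54 to 0.12 and -0.22 to 0.0033. With a library left out, the number of members past the threshold ranged from 0 (without control replicate 1) to 2 (without NFL replicate 1, where Gbp5 entered), and that of all genes from 508 (without NFL replicate 3; 616 without NFL replicate 2) to 966 (without control replicate 2), against 986 with all libraries. List genes past the threshold numbered 8 to 11 with a library left out, against 11. The mean share of Irgm1 and Igtp in the level per length was 87.7%, and 90.7% with the longest coding transcript as the length. The cause of these shifts was not tested. Groups of 3 are too small to judge single libraries as outliers. Counts of 2 to 33 in Gbp2, Gbp3, Gbp4, Gbp5, Gbp6, Gbp7 and Gbp9 limit what could be detected in these genes.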
